A study of Mus musculus with 12 samples.

Results

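The serum amyloid and orosomucoid acute phase genes were followed in the livers of mice drinking low-dose cadmium and of controls. The members were 10 genes of the set, Saa1, Saa2, Saa3, Saa4, Orm1, Orm2, Orm3, Hp, Apcs and Crp, out of 18193 genes named on the array. They were found as the 12 probe sets, of 45101, that the platform table assigns to 1 of these symbols alone, and the probe set with the highest mean over the 12 arrays stood for its gene. All 10 genes passed the filter on low signals, so none was lost before testing.

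The 12 arrays came from 4 groups of 3 mice: females without and with LDC, and males without and with LDC. All were C57BL/6J mice on a standard laboratory diet, killed at 30 weeks of age. LDC mice drank water with 100 nM cadmium chloride, given to their dams from before mating and to the offspring after weaning, and control mice drank water alone. The study asked whether such exposure changes hepatic gene expression and whether the sexes differ in this. Arrays of 1 group are labelled as biological replicates, with no litter or cage given, so p-values measure the spread between these mice, which may share litters.

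Acute phase proteins are plasma proteins whose synthesis in the liver changes during inflammation, infection or tissue injury. Interleukin 6 acts on hepatocytes through its receptor, JAK kinases and STAT3, and interleukin 1 and TNF act through NF-kappaB and C/EBP factors. Serum amyloid A proteins travel on high density lipoprotein, orosomucoids are lipocalins that carry small lipophilic molecules, haptoglobin binds free haemoglobin, and Apcs and Crp encode the pentraxins serum amyloid P and C-reactive protein. In mice serum amyloid P is the main acute phase pentraxin and C-reactive protein responds little, and Saa3 is also made outside hepatocytes, by macrophages and fat cells.

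The Saa genes lie together on chromosome 7 (GRCm38.p6 from RefSeq), with Saa3 at chr7:46711998-46719615, Saa4 at chr7:46727992-46732603, Saa1 at chr7:46740497-46743181 and Saa2 at chr7:46751833-46754313. The orosomucoid genes lie together on chromosome 4, with Orm1 at chr4:63344556-63348163, Orm3 at chr4:63356069-63359506 and Orm2 at chr4:63362449-63365877. Hp is at chr8:109575128-109579172, Crp at chr1:172698056-172699966 and Apcs at chr1:172893961-172895054. The promoter windows of 5 genes are shown. Saa1 with Saa2 and Orm2 with Orm3 were the pairs with the windows most alike. Saa3 was added because its signal was high in the same livers as those of Saa1 and Saa2. Each window is the 250 bases before the transcript start that the RefSeq promoter table uses, read 5′ to 3′ on the strand of the gene. For Saa1, Saa3 and Orm3 that start lies inside the gene span given above, so the window overlaps the span for Saa1 and Orm3 and lies within it for Saa3. Capitals mark a match to the C/EBP-like motif TTGCNNAA on either strand. The windows are chr7:46742981-46743230 on the minus strand for Saa1, chr7:46751583-46751832 on the plus strand for Saa2, chr7:46715677-46715926 on the minus strand for Saa3, chr4:63362199-63362448 on the plus strand for Orm2 and chr4:63355908-63356157 on the plus strand for Orm3.
Saa1: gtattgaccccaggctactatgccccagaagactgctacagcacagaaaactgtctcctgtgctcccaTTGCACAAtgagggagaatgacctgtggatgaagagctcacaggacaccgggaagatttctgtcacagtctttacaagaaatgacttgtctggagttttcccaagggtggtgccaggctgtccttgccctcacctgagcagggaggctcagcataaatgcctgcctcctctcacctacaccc
Saa2: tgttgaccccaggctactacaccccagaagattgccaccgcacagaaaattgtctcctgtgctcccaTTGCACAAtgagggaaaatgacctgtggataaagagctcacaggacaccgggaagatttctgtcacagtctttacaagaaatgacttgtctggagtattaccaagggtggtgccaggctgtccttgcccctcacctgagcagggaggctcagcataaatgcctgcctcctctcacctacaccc
Saa3: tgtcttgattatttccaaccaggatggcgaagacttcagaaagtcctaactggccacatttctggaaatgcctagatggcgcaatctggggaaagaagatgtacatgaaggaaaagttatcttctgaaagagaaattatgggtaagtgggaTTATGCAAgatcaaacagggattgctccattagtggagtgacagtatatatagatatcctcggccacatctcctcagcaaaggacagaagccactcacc
Orm2: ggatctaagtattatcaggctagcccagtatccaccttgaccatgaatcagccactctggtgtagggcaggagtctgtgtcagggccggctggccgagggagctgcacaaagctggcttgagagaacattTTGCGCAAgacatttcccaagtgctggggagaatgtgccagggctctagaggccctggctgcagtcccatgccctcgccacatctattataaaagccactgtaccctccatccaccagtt
Orm3: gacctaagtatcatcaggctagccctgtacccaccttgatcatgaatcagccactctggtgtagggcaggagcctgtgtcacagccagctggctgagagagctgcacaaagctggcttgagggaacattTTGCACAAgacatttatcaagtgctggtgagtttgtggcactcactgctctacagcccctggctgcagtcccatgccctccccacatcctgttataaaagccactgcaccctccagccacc

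A window was held for 8 of the 10 members, not for Orm1 or Hp. Over windows that also take in the 50 bases after the start, Saa1 and Saa2 were identical at 287 of 299 aligned bases (96.0%) and Orm2 and Orm3 at 263 of 295 (89.2%). The other 26 pairs of windows were 57.8 to 66.9% identical. The C/EBP-like motif was present in 6 of the 8 windows, those of the Saa and Orm genes, and in 3547 of 32851 windows of all genes (10.8%). Counted from the start, the match began at position -182 in Saa1 and -183 in Saa2, with the same letters, TTGCACAA, which Orm3 also carried. Orm2 differed from Orm3 by 1 letter there, with TTGCGCAA. A STAT3-like motif, TTCNNNGAA, was present in the window of Apcs alone, as TTCTAGGAA, and in 8.3% of all windows. An NF-kappaB-like motif, GGGA and TTCC with any 2 bases between them, and an HNF1-like motif, GTTAAT and ATTAAC with any base between them, were in none of the 8 windows, against 1.47% and 0.00913% of all windows. These are matches of letters in a short window and were not tested for binding.

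The arrays were alike in scale, with median signals of 95.09 to 110.3 and a mean correlation of each array with its own group of 0.8625 to 0.8803 over all probe sets that are not controls. The number of arrays limits the precision of every value here. All 9 hepatocyte markers examined, among them Alb, the albumin gene, passed the filter, and their summed signal ranged from 301751 to 391559. In whole liver RNA, fewer cells of a type and less RNA per cell cannot be told apart.

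In females, all 10 members had lower mean log2 signals with LDC than without, and none passed the test (limma, adjusted p under 0.05), against 0.122% of all 27022 probe sets tested. Orm2 had the largest change, -1.90 on the log2 scale, and Apcs the smallest adjusted p, 0.144. The median change of the members was -0.56, and that of all probe sets tested 0.01. At an unadjusted p under 0.05, 4 members (Orm1, Orm2, Hp and Apcs) were lower, against 9.01% of all probe sets in either direction. The methods' t-test with Benjamini-Hochberg adjustment called 0 members in females and 0 in males, but it called none of the 27022 probe sets in either sex and so does not separate the members from other genes. In 3 members, Orm1, Hp and Apcs, every LDC female lay below every control female, a pattern found in 6.71% of all probe sets.

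The inducible serum amyloid genes Saa1, Saa2 and Saa3 were most spread among control females. Saa1, a major acute phase isoform, had signals of 29941, 3475 and 38659 in control females 1, 2 and 3, and of 9241, 6910 and 6719 in LDC females. Its signals were 6189, 21910 and 17480 in control males and 13683, 13757 and 9644 in LDC males. Control females 1 and 3 were thus above all 10 other mice and control female 2 below all of them. The log2 change with LDC was -1.08 in females (95% interval -2.50 to 0.35, adjusted p = 0.678) and -0.13 in males (-1.56 to 1.30, adjusted p = 0.969).

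Saa2, the isoform nearest to Saa1, had a similar pattern. Its signals were 10706, 756 and 24715 in control females and 2312, 1833 and 2440 in LDC females. They were 1509, 6359 and 4454 in control males and 2676, 3909 and 2704 in LDC males. The highest and lowest of all 12 values were thus both control females, and the 3 LDC females lay close together. The log2 change was -1.42 in females (95% interval -3.30 to 0.45, adjusted p = 0.675) and -0.20 in males (-2.08 to 1.68, adjusted p = 0.964). Saa1 and Saa2 are not independent measurements here. The only Saa2 probe set has a suffix that marks probes able to hybridise to other transcripts, and the other Saa1 probe set, marked as shared within a gene family, carries an accession that RefSeq gives to Saa2. The Saa2 probe set followed the main Saa1 probe set with r = 0.96 over the 12 arrays and the other Saa1 probe set with r = 0.98.

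Saa3 had signals of 2073, 523 and 8236 in control females and of 1194, 553 and 806 in LDC females. It was 909, 586 and 974 in control males and 670, 1078 and 805 in LDC males. Control females 3 and 1 thus held the highest values of all mice, and control female 2 the lowest. The log2 change was -1.36 in females (95% interval -2.76 to 0.05, unadjusted p = 0.0579, adjusted p = 0.569) and 0.06 in males (adjusted p = 0.989).

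Saa4, the constitutive isoform, did not share this spread and was instead set apart by sex. Its signals were 9139, 11682 and 11464 in control and 8647, 9637 and 10621 in LDC females, and 16552, 23230 and 18290 in control and 16460, 17867 and 16186 in LDC males. Every male lay above every female. The log2 change with LDC was -0.16 in females (adjusted p = 0.771) and -0.19 in males (adjusted p = 0.669). Its other probe set gave the same order of the sexes, from 3053 to 5076 in females and from 6874 to 11600 in males.

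**Figure D1:**
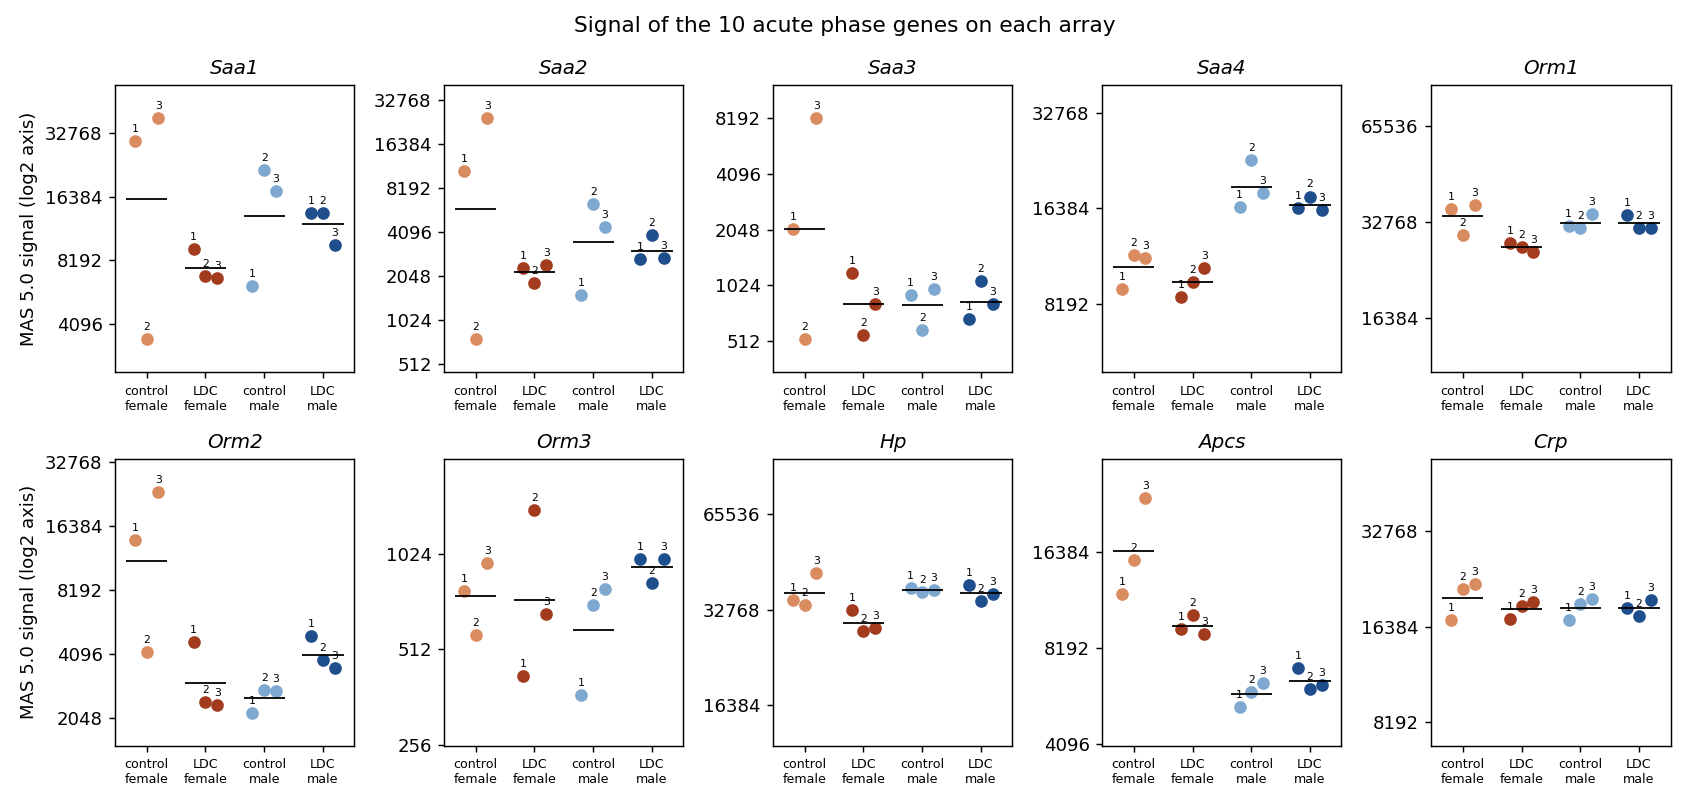
MAS 5.0 signal (log2 axis) of the main probe set of each of the 10 genes in the 4 groups, 1 point per mouse numbered by replicate, with a line at the mean of the log2 signals. Control female 2 lies far below control females 1 and 3 for Saa1, Saa2, Saa3 and Orm2, and males lie above females for Saa4.

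Among the orosomucoids, Orm2 had the widest range of group means. Orm2 signals were 14088, 4186 and 23757 in control females and 4682, 2439 and 2374 in LDC females. They were 2181, 2790 and 2748 in control males and 4970, 3871 and 3552 in LDC males. Control females were the highest group, with a mean of 14010 ± 9785 (SD, n = 3), and control males the lowest, with 2573 ± 340 (SD, n = 3). The log2 change with LDC in females was -1.90 (SE 0.44, 95% interval -2.85 to -0.95, unadjusted p = 0.000736, adjusted p = 0.147). It met a 2-fold criterion adapted from the study, a change of 2-fold or more whose limma p before adjustment was below 0.05. The limma p stood in place of the study's own p-value, so Orm2 need not be among the genes the study selected. In that direction 1.15% of all probe sets met this criterion. The groups nevertheless overlapped, since LDC female 1 lay above control female 2. The SE and interval rest on 1 spread shared by all 4 groups. The SD of log2 signal was 1.28 and 0.55 in control and LDC females, and 0.20 and 0.25 in control and LDC males. In males, every LDC value lay above every control value, with a log2 difference of 0.68 (95% interval -0.27 to 1.63, adjusted p = 0.648).

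Orm1, a major plasma orosomucoid gene, stayed within a narrow range. Its signals were 36162, 29925 and 37000 in control and 28101, 27299 and 26495 in LDC females, and 31925, 31486 and 34706 in control and 34616, 31466 and 31419 in LDC males. The LDC females were the lowest 3 mice of the 12. Their log2 difference from control females was -0.33 (SE 0.09, 95% interval -0.51 to -0.14, unadjusted p = 0.00212, adjusted p = 0.214), and that of males was -0.01 (adjusted p = 0.985). Orm3 had signals of 783, 567 and 960 in control and 422, 1408 and 662 in LDC females, and 369, 705 and 792 in control and 984, 826 and 986 in LDC males. The female groups overlapped, and the LDC males lay above the control males. The log2 change was -0.04 in females (adjusted p = 0.984) and 0.65 in males (95% interval -0.13 to 1.44, adjusted p = 0.581).

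Hp, the haptoglobin gene, had signals of 35153, 33912 and 42616 in control and 32760, 28026 and 28747 in LDC females, and 38191, 37169 and 37819 in control and 39079, 34956 and 36667 in LDC males. The LDC females again lay below all other mice. The log2 change was -0.31 in females (SE 0.09, unadjusted p = 0.00412, adjusted p = 0.272) and -0.03 in males (adjusted p = 0.944). Orm1 and Hp are among the brightest probe sets, the highest signal of any probe set being 59517 to 74770 per array, and whether their small changes were compressed near the top of the scale was not tested.

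Of the pentraxins, Apcs was ordered by group and Crp was not. Apcs had signals of 12132, 15495 and 24320 in control and 9420, 10396 and 9046 in LDC females, and 5354, 5959 and 6370 in control and 7098, 6093 and 6245 in LDC males. The order was control females, LDC females and then males, and neither female group overlapped with another group. The log2 change with LDC was -0.79 in females (SE 0.18, 95% interval -1.18 to -0.40, unadjusted p = 0.000601, adjusted p = 0.144) and 0.14 in males (adjusted p = 0.861), whose 2 groups overlapped. The SE of Apcs also rests on the shared spread. Its SD of log2 signal was 0.51 and 0.10 in control and LDC females, and 0.13 and 0.12 in control and LDC males. Crp ranged from 17165 to 22309 over the 12 mice with overlap of all 4 groups. Its log2 change was -0.12 in females (adjusted p = 0.786) and -0.0041 in males (adjusted p = 0.994).

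In males, no member passed the test (limma, adjusted p under 0.05), against 0.278% of all probe sets tested. Without adjustment the count at p under 0.05 was also 0, against 10.2% of all probe sets, and none met the 2-fold criterion, against 3%. The median log2 change of the members was -0.01 and that of all probe sets 0.00. Orm2 and Orm3 were the 2 members whose male groups did not overlap, both with LDC higher, which 8.62% of all probe sets showed. The intervals for Saa1, Saa2 and Saa3 (-1.35 to 1.46) reached beyond 1 log2 unit on both sides, so changes of 2-fold were not detectable with these mice.

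**Figure D2:**
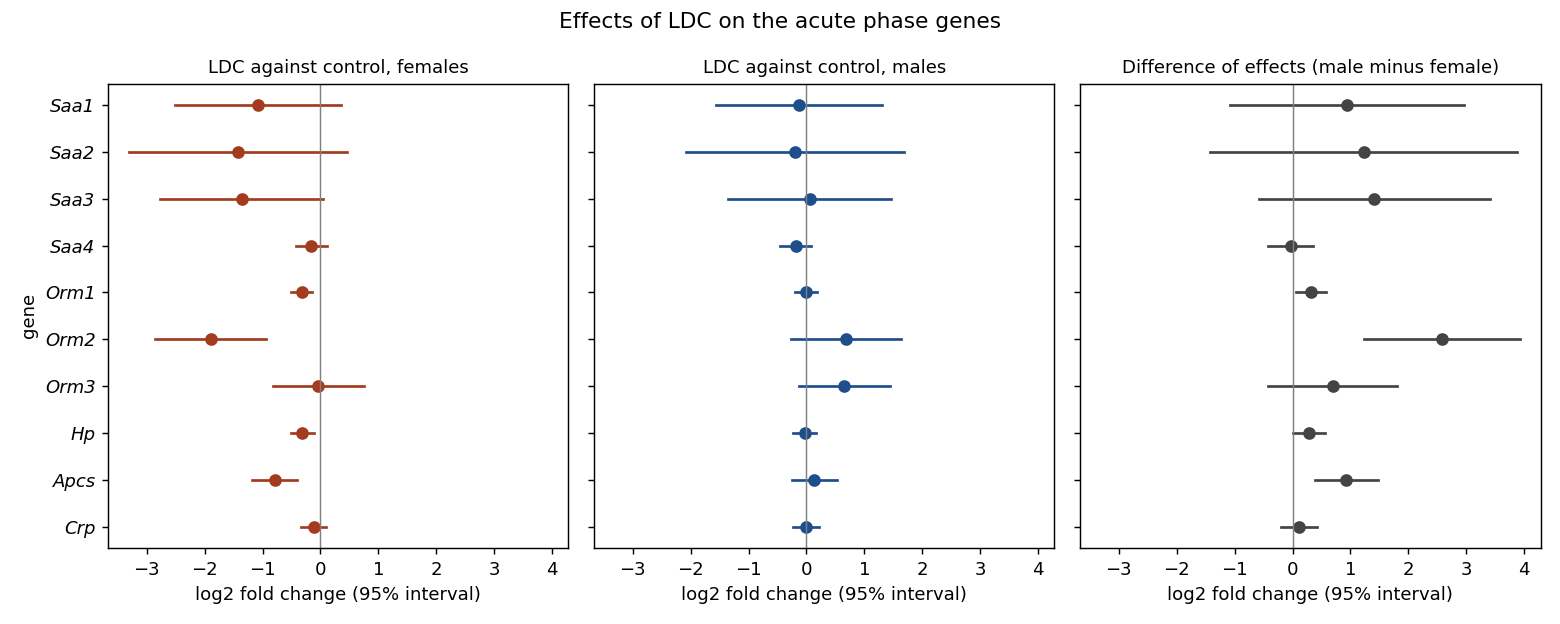
Log2 change with LDC in females and in males for the 10 genes, as points with 95% intervals from the limma fit, with a line at 0. All 10 female points lie below 0, and the intervals of Orm1, Orm2, Hp and Apcs do not reach 0, although none passed after adjustment.

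The difference between the LDC effects of the sexes, male minus female, was tested in the same model. No member passed, against 0.178% of all probe sets. Without adjustment, 4 members (Orm1, Orm2, Hp and Apcs) had p under 0.05, all with the male change above the female one, against 10.3% of all probe sets. The difference for Orm2 was 2.57 on the log2 scale (SE 0.63, 95% interval 1.23 to 3.92, adjusted p = 0.155), and it alone met the 2-fold criterion, which 2.68% of all probe sets met in that direction. For Apcs the difference was 0.93 (SE 0.26, 95% interval 0.38 to 1.47, adjusted p = 0.211). The difference was above 0 for 9 of the 10 members, Saa4 being the exception at -0.03 (adjusted p = 0.972), with a median of 0.81 against -0.01 over all probe sets. The difference uses the same mice as the effects in each sex.

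The sexes differed without cadmium. Between control males and control females, 3 of the 10 members passed the test, against 7.73% of all probe sets. Saa4 was higher in males, by 0.84 on the log2 scale (SE 0.13, adjusted p = 0.000971), and by 1.03 at its other probe set (adjusted p = 0.00177). Orm2 was lower in males, with a log2 difference of -2.13 (SE 0.44, adjusted p = 0.00876), as was Apcs, with -1.50 (SE 0.18, adjusted p = 0.000148). In these 3 genes the groups did not overlap, which 24.5% of all probe sets showed. The methods' t-test with Benjamini-Hochberg adjustment called 0 of the 10 members and 0.0259% of all probe sets, and the Orm2 call ended without an intensity trend in the variances (adjusted p = 0.0617).

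Among LDC mice, 1 of the 10 members passed between the sexes, against 6.29% of all probe sets. Saa4 was again higher in males, by 0.81 (SE 0.13, adjusted p = 0.00124) and by 1.14 at its other probe set (adjusted p = 0.000823), although its call also ended with the methods' t-test (adjusted p = 0.0583). Hp had a log2 difference of 0.31 (adjusted p = 0.0651), Apcs of -0.57 (adjusted p = 0.0801) and Orm2 of 0.44 (adjusted p = 0.661). The groups did not overlap in 6 members, against 26.9% of all probe sets, and 5 of the 6 were higher in males, against 12.5%. The Hp and Apcs values of the LDC mice did not depend on the control females, but their calls did through the shared estimate of the spread. Without control female 3 both passed (adjusted p = 0.0273 and 0.00635), and without control female 1 Apcs passed (adjusted p = 0.0221).

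The widest spread in 4 of these genes lay among control females. The SD of log2 signal in control females was 1.91 for Saa1, 2.63 for Saa2, 1.99 for Saa3 and 1.28 for Orm2, against a median of 0.297 over all probe sets tested. These SDs stood at the 98.4, 99.8, 98.7 and 94.0 percentiles. The highest control female exceeded the lowest 11.1-fold for Saa1, 32.7-fold for Saa2, 15.7-fold for Saa3 and 5.67-fold for Orm2. In LDC females the SDs were 0.25 for Saa1 and 0.22 for Saa2, against a median of 0.255, and 0.56 for Saa3 and 0.55 for Orm2, both at the 80.0 percentile. Control males were also spread in Saa1 and Saa2, with SDs of 0.97 and 1.08, and control male 1 was the low one. Whether the spread differs between the groups was not tested.

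**Figure D3:**
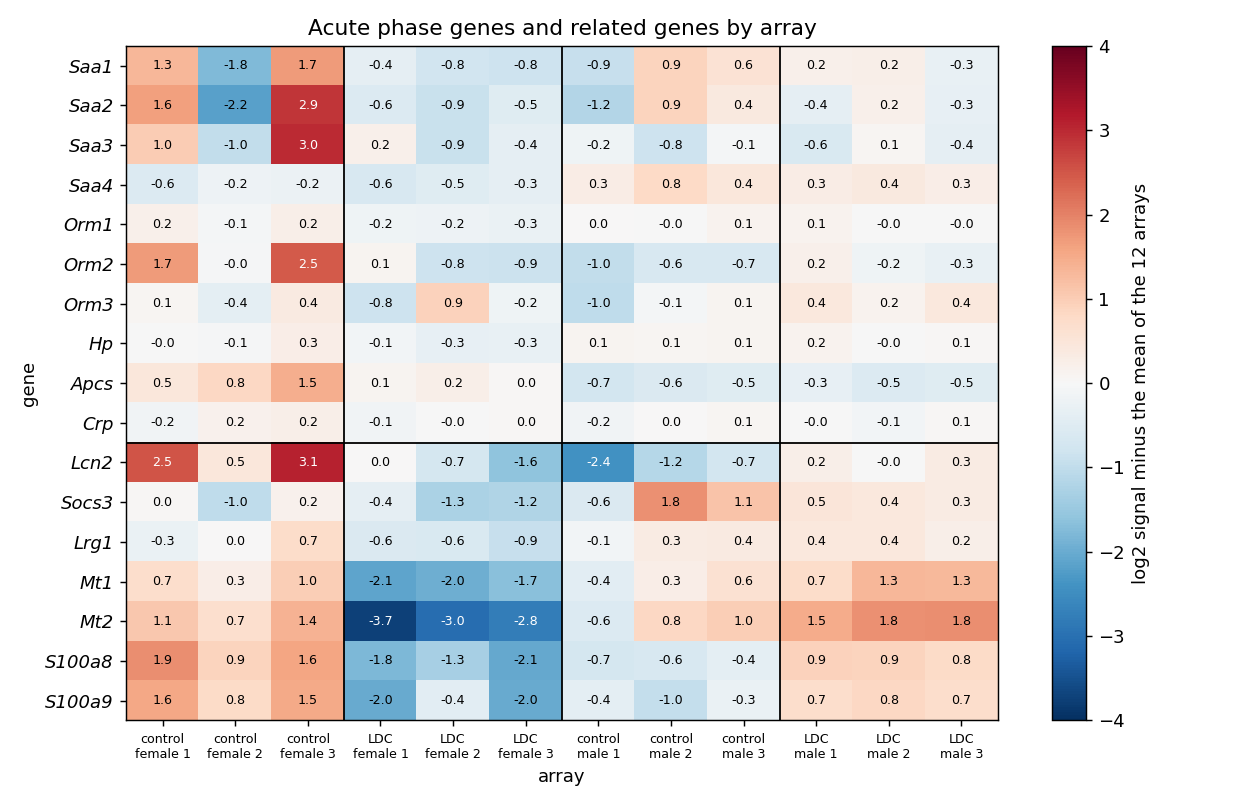
Log2 signal minus the mean of the 12 arrays, as colours, for the 10 genes and 7 other genes chosen after their values were seen (Lcn2, Socs3, Lrg1, Mt1, Mt2, S100a8, S100a9), 1 column per mouse. Control females 1 and 3 hold the 2 highest values in Saa1, Saa2, Saa3, Orm2 and Lcn2, and control female 2 is the lowest control female in each.

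The calls in females depended on which control female was left out. Without control female 2, 5 of the 10 members passed, all lower with LDC, against 0.392% of all probe sets in either direction. The log2 changes were then -2.17 for Saa1 (adjusted p = 0.0262), -2.90 for Saa2 (adjusted p = 0.0156), -2.35 for Saa3 (adjusted p = 0.0431), -0.42 for Orm1 (adjusted p = 0.0421) and -2.61 for Orm2 (adjusted p = 0.000731). Without control female 3 the changes were -0.44, -0.38 and -0.36 for Saa1, Saa2 and Saa3 and -1.35 for Orm2, and no member passed. Without control female 1, Apcs alone passed, with -1.02 (adjusted p = 0.0151), against 0.163% of all probe sets. The difference between the sexes passed for Orm2 without control female 2 (3.28, adjusted p = 0.00126) and for Apcs without control female 1 (1.15, adjusted p = 0.0475). Between control males and control females, Saa1, Saa2 and Saa3 joined the 3 calls without control female 2, all lower in males, with log2 differences of -1.35 (adjusted p = 0.0446), -2.22 (adjusted p = 0.00987) and -2.36 (adjusted p = 0.00614), against 8.09% of all probe sets.

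**Figure D4:**
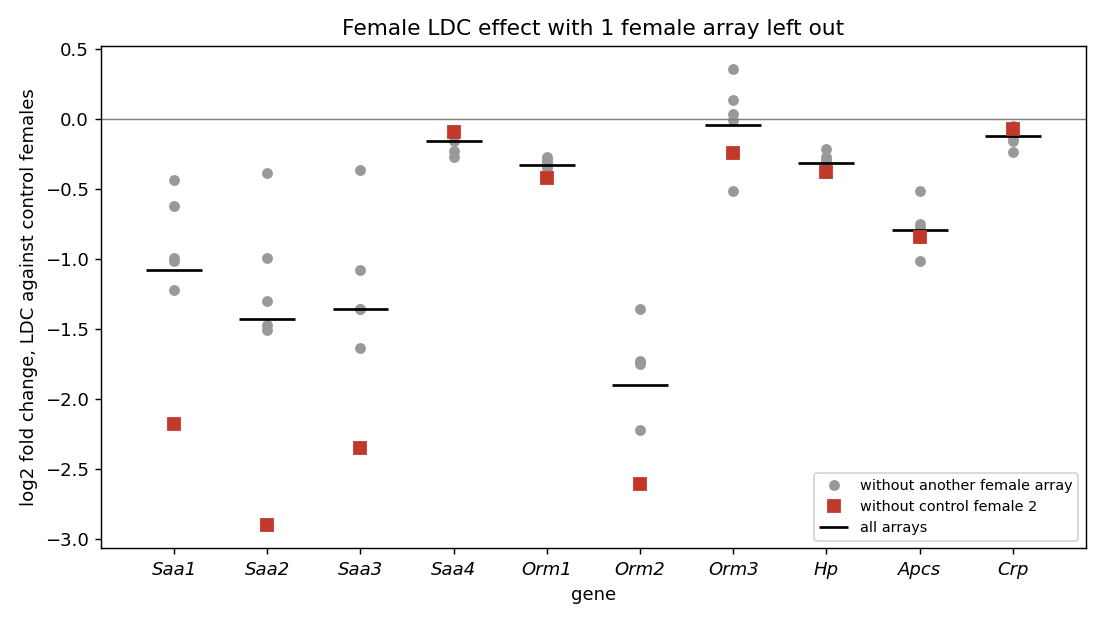
Log2 change with LDC in females for the 10 genes in the fit on all arrays and in the fits without 1 female array each, the red square being the fit without control female 2. For Saa1, Saa2 and Saa3 the values run from near 0 to beyond -2.

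Few of the cytokines and receptors that drive these genes passed the test. Of 12 genes listed, 9 were tested, and Il6, the main inducing cytokine, and Tnf were below the filter. None of the 9 passed the test with LDC in females (median log2 change -0.38), although 1 was lower by the 2-fold criterion. In Il1b, Il6st, Osmr and Tnfrsf1a every LDC female lay below every control female, a pattern found in 6.71% of all probe sets. No tested gene of this list showed the reverse. In males 1 fell, Il1r1, the signalling receptor of interleukin 1, with a log2 change of -0.997 (adjusted p = 0.0462). Its signals were 1960, 2288 and 2921 in control males and 1206, 1224 and 1117 in LDC males, which did not overlap, but the call ended in 9 of the 12 fits without 1 array (adjusted p up to 0.217). Il1r1 and Il6ra, which binds interleukin 6, were higher in control males than in control females, by 1.84 (adjusted p = 4.08e-05) and 1.12 (adjusted p = 0.00635). They were also higher in LDC males than in LDC females, by 1.23 (adjusted p = 0.00117) and 1.94 (adjusted p = 8.87e-05).

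Of 11 signalling proteins and transcription factors tested, none passed the test with LDC in either sex (median log2 change -0.10 in females and -0.02 in males). The LDC effect differed between the sexes for Nfkbiz, which encodes a nuclear I-kappaB protein induced by inflammatory signals, by 1.85 (adjusted p = 0.0390). Nfkbiz signals were 2048, 998 and 1556 in control and 972, 772 and 685 in LDC females, and 811, 1090 and 700 in control and 1726, 1624 and 1668 in LDC males. They were thus lower with LDC in every female and higher with LDC in every male, and the call ended in 9 of the 12 fits without 1 array (adjusted p up to 0.12). Cebpb and Cebpd, C/EBP factors of the acute phase response, were higher in males than in females, among controls by 0.71 (adjusted p = 0.00815) and 0.91 (adjusted p = 0.00617) and among LDC mice by 1.31 (adjusted p = 7.75e-05) and 1.49 (adjusted p = 0.000128). Socs3, a feedback inhibitor induced by STAT3, had signals of 984, 471 and 1086 in control females and 637, 3427 and 2114 in control males, the lowest mouse of each of these groups being the one lowest in Saa1.

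Of 20 other positive acute phase genes tested, 3 fell with LDC in females and none passed the test in males, with median log2 changes of -0.31 and -0.05. Those that fell were the metallothioneins Mt2 and Mt1, which bind metals and respond to them directly, with log2 changes of -4.23 (adjusted p = 3.15e-05) and -2.57 (adjusted p = 0.00015), and Itih3, an inter-alpha-trypsin inhibitor heavy chain, with -0.56 (adjusted p = 0.0282). The call of Itih3 ended in 6 of the 12 fits without 1 array (adjusted p up to 0.18). By the 2-fold criterion 4 of the 20 were lower in females and 2 higher in males, against 1.15% and 1.69% of all probe sets. In males Mt2 was 4324, 11248 and 12543 without and 17656, 22543 and 22872 with LDC. Mt1 was 10457, 16690 and 21210 without and 23492, 35568 and 34259 with LDC. Neither overlapped between the male groups. Lcn2, a lipocalin that binds bacterial siderophores, had signals of 10656, 2548 and 15752 in control and 1883, 1145 and 609 in LDC females, and 345, 839 and 1116 in control and 2207, 1841 and 2361 in LDC males. It was lower in every LDC female and higher in every LDC male than in the controls of that sex. The difference between the LDC effects of the sexes was 4.41 (adjusted p = 0.0455), a call that ended in 10 of the 12 fits without 1 array. Of 11 negative acute phase genes tested, which encode plasma proteins that decline in inflammation, none passed the test with LDC in either sex (median log2 change 0.01 in females and -0.04 in males).

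Markers of leukocytes also varied between the mice. The summed signal of the 10 macrophage and Kupffer cell markers was 54704, 20729 and 41403 in control females 1, 2 and 3 and 38889, 25687 and 8003 in LDC females. It ranged from 17123 to 17639 in control males and from 24901 to 34658 in LDC males. All 10 passed the filter and none passed the test with LDC in either sex (median log2 change -0.83 in females and 0.71 in males). The summed signal of 10 neutrophil markers was 6333, 3573 and 6537 in control females, 728 to 1091 in LDC females, and in males 1273 to 1807 without and 3395 to 4019 with LDC. Both sums were thus higher in every LDC male than in every control male. Of the 6 neutrophil markers tested, 4 fell in females (S100a8, S100a9, Ngp and Prtn3) and S100a8 rose in males, and 4 of the 10 were under the filter level over all arrays. The female call ended in 9 of the 12 fits without 1 array for Ngp (adjusted p up to 0.154) and in 3 for Prtn3 (up to 0.122), and the male call of S100a8 ended in 4 (up to 0.0895). The summed signal of 9 lymphocyte markers was 4846, 12151 and 7478 in control females, 1028 to 2169 in LDC females, and in males 3703 to 4320 without and 4146 to 6206 with LDC. Of 6 lymphocyte markers tested 2 fell in females, and of the 2 adipocyte markers tested none passed with LDC in either sex. Control female 2, the lowest control female in Saa1, Saa2, Saa3 and Orm2, was thus the lowest in the macrophage and neutrophil sums and the highest in the lymphocyte sum. Most of its neutrophil sum came from S100a8 (1688) and S100a9 (990). Among control females, Mpo, Cxcr2 and Itgam were instead highest in control female 2, at low signals, and the other neutrophil markers were lowest in it. Most of the lymphocyte sum of control female 2 came from the immunoglobulin genes Ighm (8153) and Jchain (3386). Other lymphocyte markers did not all follow the sum, and Cd3g was 303, 148 and 195 in control females 1, 2 and 3. No marker was at 0, and the part of these cells in the acute phase values was not tested.

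The genes with patterns most like those of the members were sought over the 12 arrays by the Pearson correlation of log2 signals, as a description. For Orm2 they were Lcn2 (r = 0.95, rho = 0.90, and r = 0.87 without the 2 farthest arrays, control females 1 and 3), Atp6ap2 (0.95), Tmem176a (0.95), Tmem176b (0.94) and Ypel2 (0.90). For Saa1 they were Cplane1 (0.90), Wdr61 (0.88), Atp6ap2 (0.87), Ankrd11 (0.87) and Taf15 (0.84), and Cplane1, Atp6ap2 and Ankrd11 were also among the 5 nearest to Saa2, with Cant1 and Atg7. Among the members, Saa1 and Saa2 kept r = 0.95 without their 2 farthest arrays. By contrast Saa2 and Orm2 went from r = 0.73 to -0.10 and Saa3 and Orm2 from 0.86 to 0.11 without control females 1 and 3, so these relations rest on those 2 mice. These values share the arrays, their scaling and the group differences.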

How the data were processed

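Liver RNA of 12 mice was hybridised to Affymetrix mouse genome arrays, 1 array per mouse. The deposited values are linear signal intensities, 1 for each probe set and array, from the MAS 5.0 algorithm as run by the authors. Each array has a mean of 500.0 once 2% is trimmed from both ends, so the arrays were already scaled, and 0 value columns were left without a sample. Symbols came from the platform table (2016), updated through gene IDs to RefSeq GRCm38.p6. It gave 34958 probe sets 1 gene, 932 several and 9211 none, and 64 control probe sets were left out.

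Intensities were log2 transformed. The 27022 probe sets with a mean at or above the 40th percentile (log2 5.60) were fitted with limma 3.58.1 in R 4.3.3, with 1 mean per group, 8 residual and 6.35 prior degrees of freedom and an intensity trend. P-values were two-sided and adjusted over all 27022 (Benjamini-Hochberg), with a threshold of 0.05 for a call. The spread of each probe set was estimated over all groups together. Simulated data with known changes were used to test the fit. Alternatives were other filters, scalings and pseudocounts, variance models, array weights, each sex alone, a replicate block, Student's t-test, the 2-fold criterion and each array left out.

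The members, gene lists and motifs were chosen with earlier results of these data known. All members are named, with up to 4 genes per list and comparison, those called and then those with the smallest p, except Socs3 and the genes of the colour plot, chosen after their values were seen. Promoter windows were searched and aligned with Python 3.11.15 and Biopython 1.88, and figures were drawn with matplotlib 3.10.9.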

Additional observations from a re-analysis of the deposited data

Results flagged for a closer look

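The LDC effect differed between the sexes for 10 genes of the lists examined beside the members, by the test of the difference in the limma model (male minus female, log2 scale). Among the acute phase genes and their regulators these were Mt2 with 5.53 (adjusted p = 0.000133), Mt1 with 3.55 (adjusted p = 0.000203), Lcn2 with 4.41 (adjusted p = 0.0455) and Nfkbiz with 1.85 (adjusted p = 0.0390). Among the neutrophil markers these were S100a8 with 4.60 (adjusted p = 1.47e-05), S100a9 with 4.05 (adjusted p = 0.00228), Ngp with 2.99 (adjusted p = 0.00949) and Prtn3 with 5.75 (adjusted p = 0.0277). Among the lymphocyte markers these were the immunoglobulin genes Jchain with 3.08 (adjusted p = 0.00525) and Ighm with 3.81 (adjusted p = 0.0321). The call ended in 10 of the 12 fits without 1 array for Lcn2, in 9 for Nfkbiz, in 7 for Prtn3 (adjusted p up to 0.0996) and in 9 for Ighm (up to 0.116). Without an intensity trend in the variances it ended for Lcn2 (adjusted p = 0.302), Nfkbiz (0.250), S100a9 (0.0712), Ngp (0.0630), Prtn3 (0.169), Jchain (0.115) and Ighm (0.251). In each of the 10 the male change lay above the female one, and no member of the serum amyloid, orosomucoid, haptoglobin and pentraxin genes was among them.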

How the results depend on the processing

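With 3 mice per group and no litters, cages or batches in the labels, changes of 2-fold were not detectable for the genes most spread among controls. The count of members called with LDC in males was 0 under every alternative. In females it was 0, but 1 by the 2-fold criterion and 0 to 5 with 1 array left out, and for the difference of the sexes 0, but 1 by the 2-fold criterion and 0 to 1 with 1 array left out. Between control males and control females it was 3, but 2 by the 2-fold criterion (Saa4 lost), 2 without an intensity trend (Orm2 lost), 0 by Student's t-test and 3 to 6 with 1 array left out. Between LDC males and LDC females it was 1, but 2 with a filter at the 60th percentile (Hp added), 3 with array weights (Hp and Apcs added), 0 by Student's t-test and by the 2-fold criterion, and 1 to 3 with 1 array left out.

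The replicate numbers are not known to pair the mice. The deviations of arrays with the same number correlated at -0.028 to 0.059. Compared with the arrays of the other groups, 8 of 12 arrays were closest to one with their own number. In each other group only 1 of the 3 arrays has that number, so 8 is more than unpaired numbers would give on average. With 3 mice per group and no litters, cages or batches in the labels, these values cannot settle whether mice with the same number were paired. With a replicate block the counts of members stayed at 0 for males, females and their difference, 3 between controls and 1 between LDC mice. The Orm2 change in females then had an adjusted p of 0.145. Among the list genes named, the block ended the calls of Il1r1 in males (adjusted p = 0.0779), Itih3, Ngp and Prtn3 in females (0.0631, 0.0743 and 0.0524), Lcn2 in the difference (0.0653) and Nfkbiz between controls (0.0517). Over the alternatives, adjusted p ran from 0.000391 to 0.216 for Saa4, 3.56e-05 to 0.329 for Orm2 and 1.85e-05 to 0.202 for Apcs between controls, and from 0.000436 to 0.0583 for Saa4 between LDC mice.

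Some changes turned sign under some settings, none of them called in the fit on all arrays. Not all of these were near 0. In that fit Saa2 was -0.74 between controls and Orm3 was 0.34 between LDC mice. In males these were Orm1 (8.93e-05 with quantile normalization and 0.0013 with array weights) and Crp (0.011 with quantile normalization), and in females Orm3 (0.033 with array weights). Between controls Hp was -0.014 with quantile normalization and -0.032 with median centring. Between LDC mice Crp was -0.033 with quantile normalization and -0.069 with median centring, and Saa3 was -0.038 with median centring. With 1 array left out, male changes ran from -0.68 to 0.23 for Saa1, -0.80 to 0.23 for Saa2, -0.17 to 0.21 for Saa3, -0.055 to 0.034 for Orm1, -0.075 to 0.0050 for Hp and -0.070 to 0.041 for Crp. The female change of Orm3 ran from -0.51 to 0.36 and the difference for Saa4 from -0.14 to 0.11. Between controls Saa1 ran from -1.35 to 0.39, Saa2 from -2.22 to 0.30 and Hp from -0.037 to 0.13, and between LDC mice Saa3 from -0.23 to 0.32, Orm3 from -0.055 to 0.81 and Crp from -0.041 to 0.054. The cause was not tested.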
